A study of Mus musculus with 6 samples.

Results

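Matricellular proteins are secreted proteins that sit in the extracellular matrix and act mainly on cell behaviour rather than as load-bearing fibers, and fibronectin is the adhesive glycoprotein on which many of them assemble. A list of genes, fixed by name and not by a threshold on measured values, was followed in stromal cells of MO5 melanomas, with all 10 found by symbol among the 53801 genes of the table: the tenascins Tnc and Tnxb, the thrombospondins Thbs1, Thbs2 and Thbs3, Sparc and its relative Sparcl1, periostin (Postn), osteopontin (Spp1) and fibronectin (Fn1).

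MO5 is an ovalbumin-expressing derivative of the B16 mouse melanoma line. Cells sorted as PDGFRα+ Pdpn+ stroma, without CD45 and CD31, were taken from MO5 tumors of DTR- mice (3 samples, here Ctrl) and DTR+ mice (3 samples, here DTR), and total RNA was sequenced as strand-specific libraries. Ctrl samples came from sex-matched littermates without the transgene and DTR samples from mice on the C57Bl/6 background that carry the diphtheria toxin receptor under the Adam12 promoter on a bacterial artificial chromosome transgene (tTA-Ires-DTR), so that the promoter decides which cells the toxin can kill. Both groups received diphtheria toxin, no group went without it, and the mice were young adults at implantation by the study’s methods. The comparison asked how the remaining sorted stroma differed after toxin treatment of mice with and without the receptor. The labels do not say that each library came from a separate mouse, so p-values measure the spread between these libraries.

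In wounds and tumors, activated fibroblasts secrete matricellular proteins into the provisional matrix, where integrins, CD44 and CD47 on neighbouring cells bind them. Tenascin-C and periostin are well known in the stroma of healing skin and tumors, tenascin-X in the collagen network of resting dermis, and thrombospondin-1 as an inhibitor of blood vessel growth and an activator of latent TGFβ. SPARC binds collagen during its deposition and osteopontin is a phosphorylated ligand of αv integrins and CD44 made by stromal, tumor and myeloid cells.

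Tnc and Tnxb, the related tenascins compared as a ratio, lie on different chromosomes, and the 250 bases before their annotated starts are shown to let the regions be compared. They were read from RefSeq sequence of GRCm38.p6, at chr4:64047016-64047265 on the minus strand for Tnc and chr17:34670285-34670534 on the plus strand for Tnxb. Capitals mark the TATA box letters TATAAA in Tnc and the AP-1 letters TGANTCA in Tnxb.
Tnc: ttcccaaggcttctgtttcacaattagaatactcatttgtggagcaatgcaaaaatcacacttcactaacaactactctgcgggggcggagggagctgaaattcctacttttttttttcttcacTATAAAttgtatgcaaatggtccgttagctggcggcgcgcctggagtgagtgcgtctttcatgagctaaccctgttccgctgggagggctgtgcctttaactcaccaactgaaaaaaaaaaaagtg
Tnxb: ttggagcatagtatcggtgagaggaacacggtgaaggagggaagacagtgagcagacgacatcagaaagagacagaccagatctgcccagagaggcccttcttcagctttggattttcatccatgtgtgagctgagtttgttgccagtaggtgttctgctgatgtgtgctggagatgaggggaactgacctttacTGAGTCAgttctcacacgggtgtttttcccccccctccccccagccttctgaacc
RefSeq gives 2 starts for Tnc, and the stretch shown precedes the one farther upstream. In Tnc the TATAAA match began 126 bases before that start, and in Tnxb the TGANTCA match began 55 bases before its own start. The window of the other Tnc start, a little downstream, holds the same TATAAA match farther from its start and also a match to GCGTG, a core of hypoxia response elements, which 32.4% of windows hold. The letters ACGTG (19.6% of windows) and GGAATG (14.7%) were searched too, without a match in the windows of Tnc and Tnxb. All motifs were searched on both strands. Of 32851 mouse RefSeq promoter windows that reach 250 bases before and 50 bases after a start, 13.6% held TATAAA and 7.8% held TGANTCA, so neither match is rare. Promoter windows were found for 7 of the 10 genes. A match describes letters only.

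Each library held 22339635 to 34271929 counts. With 3 counts taken as the limit that a count of 0 allows, this limit lay between 0.0875 and 0.134 CPM (a gene’s counts relative to the library total, scaled between libraries by the trimmed mean of M-values), and it covers counting error only. The libraries resembled each other closely, with Pearson correlations across genes of 0.957 to 0.971 within groups and 0.947 to 0.97 between them. Adam12, whose promoter drives the receptor, measured 216, 181 and 175 CPM in Ctrl and 165, 151 and 112 CPM in DTR, a log2 fold change of -0.42 (adjusted p = 0.602, edgeR quasi-likelihood, Benjamini-Hochberg). Markers of the sorted cell type were detected, with counts for all 10 fibroblast genes, among them Pdgfra at 42.6 to 132 CPM and Pdpn at 46 to 99 CPM. Genes of melanoma cells were abundant too, and their 11 summed genes stood at 17300 to 20300 CPM in Ctrl and 16200 to 19200 CPM in DTR, above the summed fibroblast genes in 6 of 6 libraries. The study checked sort purity by flow cytometry in preliminary experiments, but how pure these libraries are cannot be read from the table, and what share of the counts of Fn1, Spp1 or any other of the 10 genes came from stromal cells was not tested. Summed T cell genes (7 genes) were at 6.45 to 37.5 CPM in Ctrl and 11.5 to 16.9 CPM in DTR. Summed macrophage genes (13 genes) were at 137 to 227 and 157 to 170 CPM, and summed endothelial genes (10 genes, with Emcn, Cldn5, Egfl7 and Tie1 at or under 3 counts in every library) at 27.7 to 34.9 and 34.1 to 101 CPM. The highest endothelial sum, in DTR replicate 3, was mostly Tek at 62.8 CPM, and the other endothelial genes summed to 38.6 CPM there. Keratinocyte genes (6 genes, with Krt14, Krt15 and Krt1 at or under 3 counts in every library) and skeletal muscle genes (6 genes, with Myh4 at or under 3 counts in every library) summed to 1.09 to 3.88 and 2.47 to 4.56 CPM in Ctrl, and to 1.15 to 2.16 and 3.22 to 3.89 CPM in DTR. Fold changes on the log2 scale ran from Cd3d (-1.23) to Trac (0.02) for T cells, from Mrc1 (-0.57) to Adgre1 (0.31) for macrophages, from Cdh5 (-1.53) to Tek (1.84) for endothelium, from Dsp (-0.52) to Krt10 (0.46) for keratinocytes and from Ckm (0.42) to Tnnt3 (0.50) for muscle, with 0 called by edgeR in any list. In these bulk samples, fewer cells of a type and less RNA per cell cannot be told apart.

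None of the 10 genes passed the test across all genes between DTR and Ctrl. edgeR called 0 of 15133 genes at an adjusted p under 0.05, a background of 0%, and the lowest adjusted p of any gene was 0.602. At an unadjusted p under 0.05, 622 genes were lower in DTR (4.11%) and 577 were higher (3.81%), and of the 10 genes 1 was lower (Spp1) and 0 were higher. DESeq2, the study's own tool, called 31 of 20360 genes (0.152%), with 0 of the 10 among them, and 1 of the 10 (Spp1) had an unadjusted p under 0.05 beside 4.89% of all genes in that fit. Every DTR library lay below every Ctrl library in 1238 genes (8.18%) and above in 956 (6.32%), and in 0 of the 10 either way. Of the fold changes, 7 were positive and 3 negative, with a median of 0.31 on the log2 scale beside 0 over all genes tested. Single libraries moved both counts and median: without Ctrl replicate 1, 9 of the 10 had an unadjusted p under 0.05 beside 8.35% of all genes, and the median was 0.84. That count was 6 without DTR replicate 2 (7.59% of all genes), 2 without Ctrl replicate 2 (5.21%), 0 without Ctrl replicate 3 (6.09%) and 0 without DTR replicate 1 (10.2%). The median was 0.03 without Ctrl replicate 3, 0.19 without Ctrl replicate 2 and 0.20 without DTR replicate 3. In each of these fits 0 of the 10 passed the adjusted edgeR test.

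**Figure D1:**
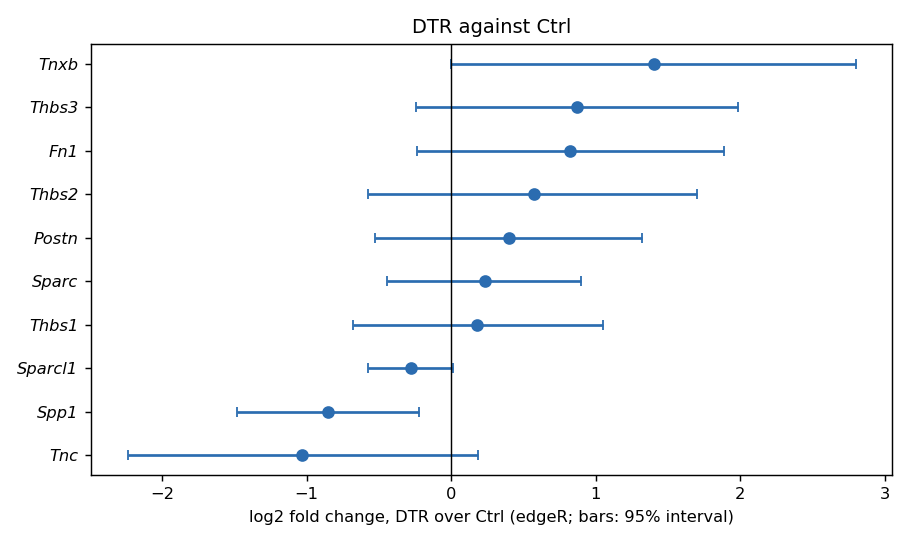
Log2 fold change of DTR over Ctrl on the x axis for each of the 10 genes, with bars for the 95% interval of the edgeR fit, which includes the spread between libraries. Only the interval of Spp1, from -1.48 to -0.226, lies wholly on one side of 0, without adjustment over genes.

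Per length, Sparcl1, Sparc and Fn1 were the most abundant of these genes on average over the Ctrl and DTR libraries together. In Ctrl replicate 3, Spp1 (144 RPKM) stood above Fn1 (58 RPKM), whereas Fn1 was the higher in the other libraries. RPKM, the CPM divided by the length in kilobases of the union of the exons in GENCODE M21, averaged 264 ± 41.4 for Sparcl1, 181 ± 55.2 for Sparc, 137 ± 82.4 for Fn1, 86.2 ± 37.6 for Spp1 and 48.7 ± 25.2 for Thbs2 (SD, n = 6 libraries). Lower levels were seen for Tnxb (35.2 ± 33.7), Thbs1 (26.6 ± 10.8), Postn (23.9 ± 9.08), Tnc (20.7 ± 15.2) and Thbs3 (5.78 ± 3.68). A union of exons can be longer than the transcript that cells make, so the order holds for this length only. The union was 8702 bases for Postn, whose mean CPM (180 in Ctrl, 237 in DTR) was above that of Thbs1 (151 and 172). Sparcl1 exceeded Sparc in 6 of 6 libraries, by 1.02 to 2.62 times, the only neighbouring pair that kept its order in every library. This rests on the exon unions, 2937 bases for Sparcl1 and 3788 for Sparc. By CPM, Sparc was the higher in Ctrl replicate 1 (965 and 767), DTR replicate 1 (801 and 635) and DTR replicate 3 (825 and 684). Sparcl1 was the higher in the other libraries. Sparc exceeded Fn1 in 5 of 6 libraries and Tnc exceeded Thbs3 in 5 of 6, whereas Tnxb exceeded Thbs1 in 2 of 6 and Thbs1 exceeded Postn in 3 of 6, so that the middle of the order is not separated beyond the spread. Fn1 over Spp1 and Thbs2 over Tnxb held in 5 of 6 libraries, and Spp1 over Thbs2 and Postn over Tnc in 4 of 6.

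**Figure D2:**
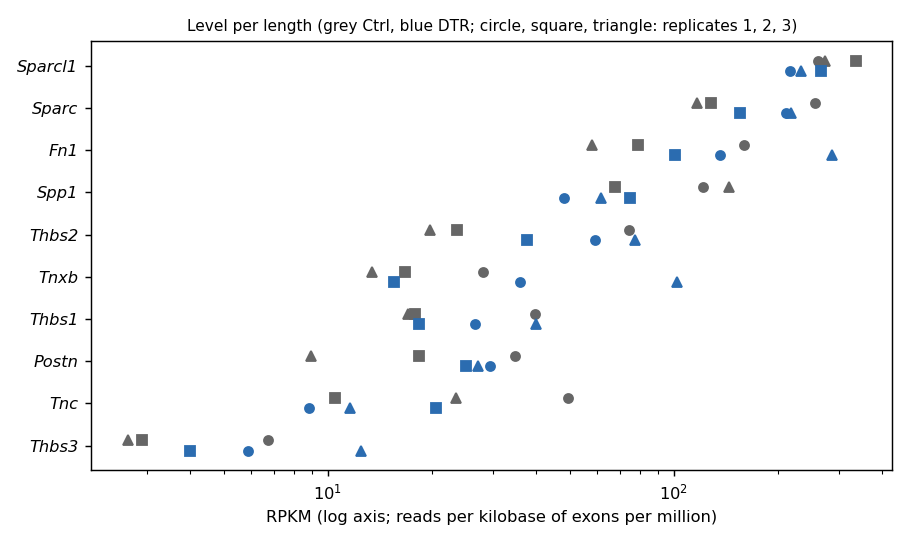
RPKM on a log axis for each gene in each of the 6 libraries (grey, Ctrl; blue, DTR; symbols, replicate numbers). Sparcl1 spans the narrowest range and Tnxb the widest, with DTR replicate 3 at 102 RPKM far to the right of the other Tnxb points.

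Fibronectin is the main adhesive substrate for fibroblasts and binds α5β1 and αv integrins. Fn1 (ENSMUSG00000026193, chr1:71585520-71653200, GRCm38, minus strand) measured 1860, 921 and 678 CPM in Ctrl replicates 1, 2 and 3 and 1590, 1180 and 3350 CPM in DTR replicates 1, 2 and 3. DTR replicate 3 was highest, Ctrl replicates 2 and 3 were lowest, and the groups overlapped. Its log2 fold change was 0.82 ± 0.46 (SE), with a 95% interval from -0.238 to 1.89 and adjusted p = 0.662 (edgeR quasi-likelihood, Benjamini-Hochberg). It was 0.26 without DTR replicate 3 and 1.35 without Ctrl replicate 1.

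Neither tenascin passed the test, and the fold change was negative for Tnc and positive for Tnxb. Tnc (ENSMUSG00000028364, chr4:63959785-64047015, minus strand), which encodes the tenascin of wounds and tumor stroma, measured 384, 81.6 and 183 CPM in Ctrl and 68.6, 159 and 90.3 CPM in DTR. Ctrl replicate 1 stood well above the rest, Ctrl replicate 2 lay within the DTR range, and the groups overlapped. For Tnc the log2 fold change was -1.03 ± 0.524 (SE), with a 95% interval from -2.24 to 0.184 and adjusted p = 0.65 (edgeR quasi-likelihood, Benjamini-Hochberg). It was -0.32 without Ctrl replicate 1 and -1.45 without DTR replicate 2.

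Tnxb (ENSMUSG00000033327, chr17:34670535-34719815, plus strand) encodes tenascin-X, which stabilizes the collagen network of dermis. It measured 342, 204 and 164 CPM in Ctrl and 440, 189 and 1240 CPM in DTR, and only DTR replicates 1 and 3 stood above all Ctrl libraries. The log2 fold change was 1.40 ± 0.607 (SE), with a 95% interval from -0.00491 to 2.80 and adjusted p = 0.629 (edgeR quasi-likelihood, Benjamini-Hochberg). Without DTR replicate 3 the value was 0.41, and without DTR replicate 2 it was 1.83. Tnxb shared 6.41% of its 50-base words with the pseudogene Tnxa, which held 0 to 13 counts in a library beside 4672 to 28161 for Tnxb.

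A ratio of genes within a library does not depend on how libraries are scaled. The log2 ratio of Tnc to Tnxb counts was 0.17, -1.32 and 0.16 in Ctrl and -2.68, -0.25 and -3.78 in DTR. DTR replicates 1 and 3 had the lowest ratios and DTR replicate 2 lay among the Ctrl libraries. The means differed by -1.90 (-0.33 ± 0.856 in Ctrl and -2.24 ± 1.81 in DTR, SD, n = 3; exact two-sided permutation test p = 0.2, adjusted p over the 3 ratios 0.3). Leaving out DTR replicate 3 gave -1.13 and leaving out DTR replicate 2 gave -2.90.

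**Figure D3:**
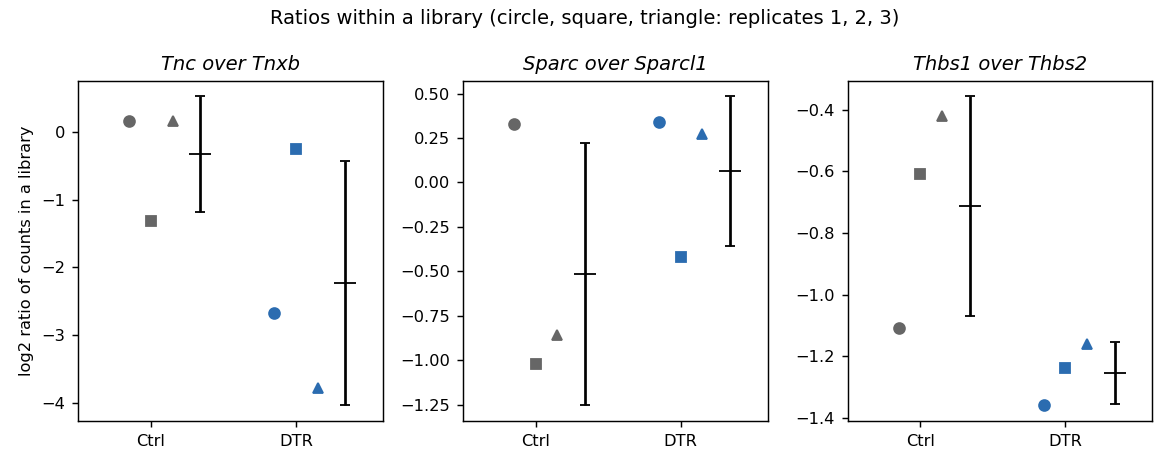
Log2 ratio of counts within a library for the tenascin, SPARC and thrombospondin pairs in Ctrl and DTR, with bars for the mean ± SD of 3 libraries. Ratios of Thbs1 to Thbs2 do not overlap between groups, and the other pairs of groups overlap.

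Thrombospondins 1 and 2 are closely related trimeric proteins that bind CD36 and CD47, and thrombospondin-3 belongs to the pentameric subgroup. Thbs1 (ENSMUSG00000040152, chr2:118111876-118127133, plus strand) measured 241, 109 and 104 CPM in Ctrl and 161, 112 and 242 CPM in DTR. Thbs2 (ENSMUSG00000023885, chr17:14665500-14694235, minus strand) measured 520, 166 and 139 CPM in Ctrl and 415, 264 and 542 CPM in DTR. Thbs3 (ENSMUSG00000028047, chr3:89215180-89226837, plus strand) measured 32.4, 14 and 12.7 CPM in Ctrl and 28.4, 19.3 and 60.4 CPM in DTR. In all 3 genes DTR replicate 3 was highest, Ctrl replicate 3 was lowest, and the groups overlapped. The log2 fold changes were 0.18 ± 0.375 for Thbs1, 0.57 ± 0.493 for Thbs2 and 0.87 ± 0.481 for Thbs3 (SE), with adjusted p of 0.911, 0.769 and 0.661 (edgeR quasi-likelihood, Benjamini-Hochberg). Thbs1 did not keep its sign, being -0.01 without Ctrl replicate 2, -0.02 without Ctrl replicate 3, -0.15 without DTR replicate 3 and 0.69 without Ctrl replicate 1. Thbs2 ranged from 0.25 without Ctrl replicate 3 to 1.42 without Ctrl replicate 1, and Thbs3 from 0.28 without DTR replicate 3 to 1.43 without Ctrl replicate 1. Exons of Thbs3 overlap those of Mtx1 on the opposite strand over 318 bases, 6.59% of its exons.

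The log2 ratio of Thbs1 to Thbs2 was -1.11, -0.61 and -0.42 in Ctrl and -1.36, -1.24 and -1.16 in DTR. Every DTR library lay below every Ctrl library, although Ctrl replicate 1 and DTR replicate 3 were close. The difference of -0.54 gave p = 0.1 in the exact two-sided permutation test with n = 3, the smallest p that 3 libraries against 3 allow, and 0.3 after adjustment over the 3 ratios. Leaving out single libraries kept it between -0.74 and -0.40.

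SPARC binds collagen and calcium, and SPARC-like 1 shares its domain structure. Sparc (ENSMUSG00000018593, chr11:55394500-55423183, minus strand) measured 965, 486 and 443 CPM in Ctrl and 801, 588 and 825 CPM in DTR, and all DTR libraries lay between the Ctrl libraries. Its log2 fold change was 0.23 ± 0.291 (SE; adjusted p = 0.848, edgeR quasi-likelihood, Benjamini-Hochberg), with 0.03 without Ctrl replicate 3 and 0.67 without Ctrl replicate 1. Sparcl1 (ENSMUSG00000029309, chr5:104079111-104113733, minus strand) measured 767, 987 and 803 CPM in Ctrl and 635, 784 and 684 CPM in DTR. It varied least, by 1.55 times between the lowest and highest library, and DTR replicate 2 exceeded Ctrl replicate 1. The log2 fold change of Sparcl1 was -0.28 ± 0.128 (SE), with a 95% interval from -0.576 to 0.0137 and adjusted p = 0.63 (edgeR quasi-likelihood, Benjamini-Hochberg), and it was -0.16 without Ctrl replicate 2.

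The log2 ratio of Sparc to Sparcl1 was 0.33, -1.02 and -0.86 in Ctrl and 0.34, -0.42 and 0.27 in DTR. Ctrl replicate 1 lay with the DTR libraries, and the groups overlapped. The difference of 0.58 (exact two-sided permutation test p = 0.3, n = 3; adjusted p over the 3 ratios 0.3) became 1.00 without Ctrl replicate 1 and 0.33 without Ctrl replicate 2.

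Periostin is secreted by activated fibroblasts and binds αv integrins and tenascin-C. Postn (ENSMUSG00000027750, chr3:54361109-54391037, plus strand) measured 302, 159 and 78 CPM in Ctrl and 255, 218 and 236 CPM in DTR. The DTR libraries were close to each other and lay inside the Ctrl range. Its log2 fold change was 0.40 ± 0.40 (SE), with a 95% interval from -0.525 to 1.32 and adjusted p = 0.8 (edgeR quasi-likelihood, Benjamini-Hochberg), and it was 0.04 without Ctrl replicate 3 and 1.00 without Ctrl replicate 1.

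Osteopontin gave the lowest unadjusted p of the 10 genes. Spp1 (ENSMUSG00000029304, chr5:104435118-104441050, plus strand) measured 200, 112 and 237 CPM in Ctrl and 79.3, 123 and 101 CPM in DTR. Ctrl replicates 1 and 3 stood above all DTR libraries, whereas Ctrl replicate 2 lay inside the DTR range. The log2 fold change was -0.85 ± 0.271 (SE), with a 95% interval from -1.48 to -0.226, an unadjusted p of 0.0139 and adjusted p = 0.602 (edgeR quasi-likelihood, Benjamini-Hochberg). With DESeq2 the adjusted p was 0.162, and without single libraries the log2 fold change lay between -1.11 (without Ctrl replicate 2) and -0.62 (without Ctrl replicate 3). Spp1 was tested as is, although 18.75% of its exons overlap those of Gm42793 on the same strand, which held 0 counts in every library. The exact two-sided permutation test of log2 CPM gave p of 0.2 to 0.5 for the 10 genes (n = 3 a group, smallest possible 0.1).

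**Figure D4:**
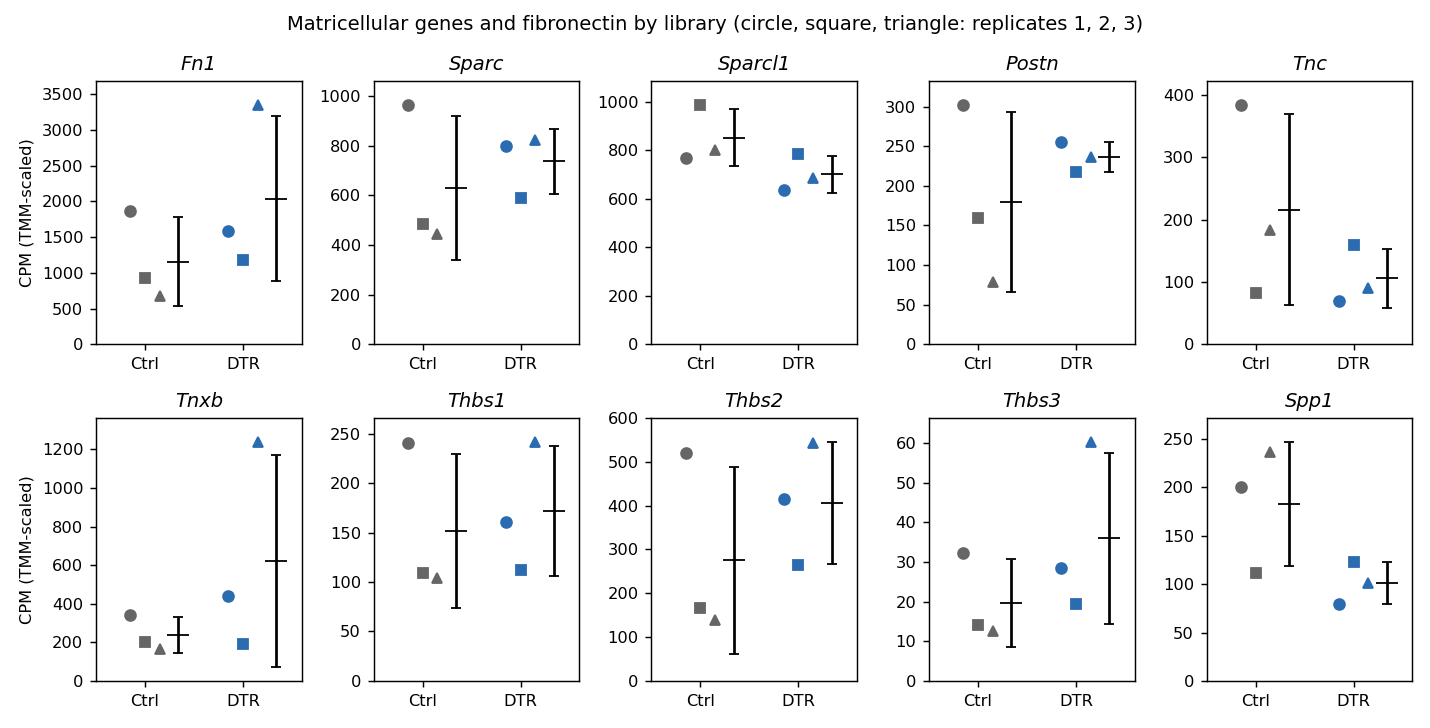
CPM of the 10 genes in each library (y axes start at 0 and differ between panels), with bars for the mean ± SD of 3 libraries. Ctrl and DTR overlap in every panel, and DTR replicate 3 is the highest library for Fn1, Tnxb, Thbs1, Thbs2 and Thbs3.

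The 10 genes showed 3 patterns by the libraries in which they were highest, a reading chosen after the values were seen and given without a test. In Fn1, Thbs1, Thbs2, Thbs3, Tnxb, Sparc and Postn, the 3 highest libraries were Ctrl replicate 1, DTR replicate 1 and DTR replicate 3, so that this pattern crosses the groups. These are the highest libraries for 1112 of 15133 genes tested (7.35%) and for 9 of the 10 fibroblast genes. Summed fibroblast genes stood at 13700, 5250 and 5210 CPM in Ctrl and 10900, 5600 and 14200 CPM in DTR, with log2 fold changes from Pdgfrb (-0.19) to Dcn (1.02) and 0 called. Their part in the result was not tested.

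Sparcl1 had the reverse pattern, with its 3 highest levels in Ctrl replicates 2 and 3 and DTR replicate 2. That pattern was seen in 926 genes (6.12%) and in 7 of the 11 melanoma genes, which encode pigment cell proteins such as Dct, and in 0 of the 10 fibroblast genes. Summed melanoma genes measured 17300, 20300 and 19500 CPM in Ctrl and 17000, 19200 and 16200 CPM in DTR, with log2 fold changes from Sox10 (-0.28) to Mlana (0.05) and 0 called, and their part in the levels of Sparcl1 was not tested.

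Tnc and Spp1 shared the third pattern, with Ctrl replicates 1 and 3 and DTR replicate 2 highest, as did 504 genes (3.33%) and 4 of the 8 contractile and pericyte genes tested. Summed contractile and pericyte genes measured 104, 59.3 and 81.9 CPM in Ctrl and 53.6, 64.6 and 45.8 CPM in DTR. Mcam was the largest part of this sum in every library, at 46.4, 32.8 and 49.7 CPM in Ctrl and 33.3, 37.3 and 27.8 CPM in DTR. Rgs5 and Kcnj8 of the list held at most 26 and 16 counts in a library and were not tested. Higd1b, a pericyte marker, was at 0 counts. Within that list 7 of 8 fold changes were negative (median -0.72 on the log2 scale), from Acta2, smooth muscle actin, at -1.31 to Myh11, smooth muscle myosin, at 0.39, and 0 genes passed the adjusted test in edgeR. Whether contractile cells or pericytes had a part in the levels of Tnc and Spp1 was not tested.

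**Figure D5:**
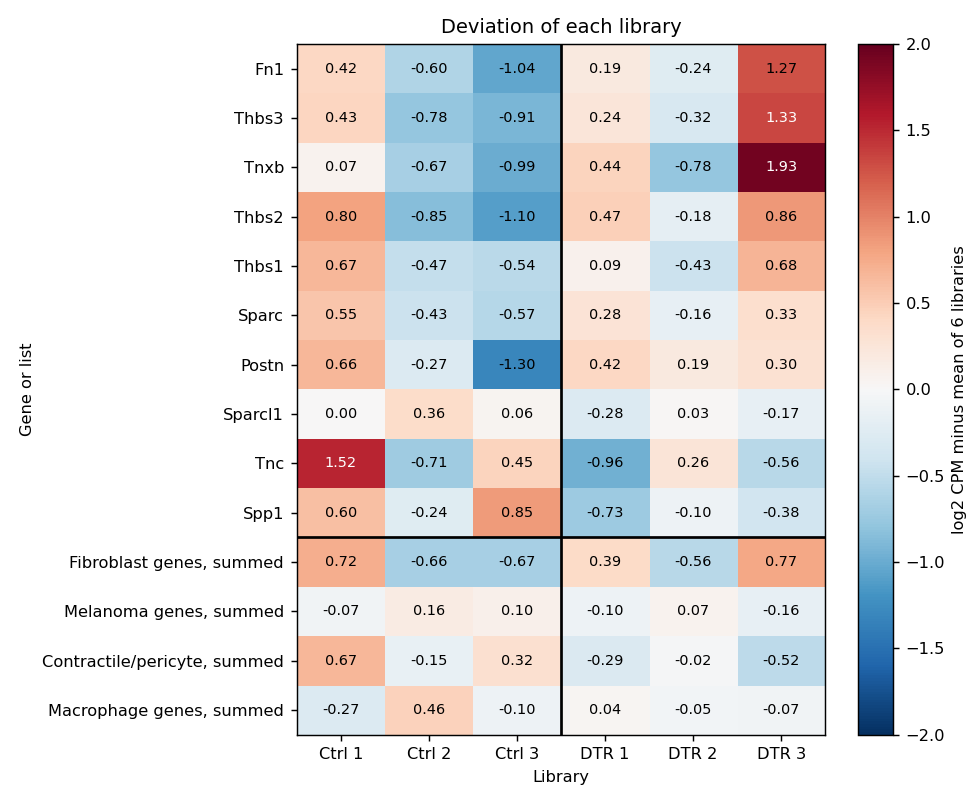
Log2 CPM minus the mean of the 6 libraries (color and printed value) for the 10 genes above the line and for summed marker genes below it, with Ctrl to the left and DTR to the right of the vertical line. Fn1 to Postn share sign with the summed fibroblast genes in every library, except Postn in DTR replicate 2.

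Most of the summed fibroblast genes was collagen, with Col1a1, Col1a2 and Col3a1 at 4290, 2540 and 6250 of 13700 CPM in Ctrl replicate 1. In DTR replicate 3 they stood at 3020, 2430 and 7590 of 14200 CPM. The counts of each gene were also set against this sum in the same library, an alternative added after the data were seen. Since the summed fibroblast genes were themselves 0.40 higher in DTR on the log2 scale, this subtracts 0.40 from the DTR minus Ctrl difference of every gene alike, and the sign of a difference on this scale says nothing about a single gene. The range over the 6 libraries was narrower for 8 of the 10 genes, beside 1591 of all 15133 genes tested (10.5%). The summed fibroblast genes themselves ran from -0.67 to 0.77 around their log2 mean, so a gene that varies little can only widen. Among the 8 are the 7 genes that were highest in the same 3 libraries as 9 of the 10 fibroblast genes. Their narrowing largely restates that shared pattern, so no conclusion is drawn from the 8 beside 10.5%. On the log2 scale the range went from 2.31 to 0.86 for Fn1 and from 2.24 to 0.85 for Thbs3. For Thbs2 it went from 1.96 to 0.82 and for Thbs1 from 1.22 to 0.48. Tnxb kept a range of 1.81 out of 2.92, whereas Tnc was nearly as wide as before (2.47 and 2.48). For Spp1 and Sparcl1 the range was wider, at 2.67 in place of 1.58 and at 1.96 in place of 0.64.

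The genes most like a member were found by the root mean square difference of centred log2 CPM over the 6 libraries, among 12985 tested genes with mean CPM of at least 1, for the 3 members that ranged most (Tnxb by 7.56 times, Tnc by 5.6 times and Fn1 by 4.95 times). Nearest to Tnxb were Tmem100 (0.0897), Dpt (0.138), which encodes the collagen-binding protein dermatopontin, and Col14a1 (0.138), a fibril-associated collagen. Dpt measured 93.4, 42.3 and 40.2 CPM in Ctrl and 115, 44 and 273 CPM in DTR. Nearest to Fn1 were Thbs3 (0.101), Mfap5 (0.125), a microfibril protein, and Errfi1 (0.131). Nearest to Tnc were Map2k3os (0.192), Heyl (0.202), a Notch target, and Meltf (0.301), each at under 5 CPM in every library. Among the 10 genes themselves Tnc lay nearest to Spp1 (0.489) and Sparc nearest to Thbs1 (0.205).

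Of 22 further matricellular genes, 12 had counts enough to be tested, 7 with negative and 5 with positive fold changes (median -0.12 on the log2 scale). In edgeR 0 passed the adjusted test. At an unadjusted p under 0.05, 1 was higher (beside 3.81% of all genes) and 0 were lower (beside 4.11%). The highest was Nov, which encodes the CCN family member CCN3, at 27.1, 11.8 and 10 CPM in Ctrl and 42, 13.3 and 72.8 CPM in DTR, with a log2 fold change of 1.39 (adjusted p = 0.624, edgeR quasi-likelihood, Benjamini-Hochberg). The lowest was Thbs4 at -0.37, and the median moved to 0.46 without Ctrl replicate 1. Ibsp and Dspp, genes of mineralized tissue, had 0 counts in every library. Fstl1, a secreted relative of SPARC, was the most abundant of the list by CPM, at 669, 327 and 282 in Ctrl and 640, 350 and 1110 in DTR.

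No receptor of these proteins passed the adjusted test. Of 18 integrins, CD44, CD47, scavenger receptors and related genes 17 were tested and 0 passed in edgeR (median log2 fold change 0.01). At an unadjusted p under 0.05, 1 was lower and 2 were higher, beside 4.11% and 3.81% of all genes. Itgb6, the epithelial partner of αv that activates TGFβ, measured 1.02, 0.669 and 1.12 CPM in Ctrl and 3.4, 2.93 and 2.73 CPM in DTR, a log2 fold change of 1.68 with adjusted p = 0.602 (edgeR quasi-likelihood, Benjamini-Hochberg). Stab1, a scavenger receptor that takes up SPARC, measured 9.42, 9.71 and 8.57 CPM in Ctrl and 7.38, 5.82 and 5.02 CPM in DTR, a log2 fold change of -0.60. Groups did not overlap in 2 receptors that were lower (Stab1 and Calr) and 2 that were higher (Itgb6 and Cd47), beside 8.18% and 6.32% of all genes. The widely expressed Itgb1 (669, 632 and 640 CPM in Ctrl, 623, 693 and 635 in DTR) and Cd44 (708, 662 and 637, then 686, 687 and 654) had log2 fold changes of 0.01 each.

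Markers of the stromal population that the study calls S1 (Cd34, Dpp4, C3, Il6ra and Il6st) summed to 1110, 574 and 779 CPM in Ctrl and 1180, 562 and 2670 CPM in DTR. All 5 fold changes were positive, from 0.10 for Il6st to 1.51 for Dpp4, and 0 passed the adjusted test in edgeR. DTR replicate 3 was again the highest library, with Dpp4 at 191 CPM there beside 62.4 and 29.6 CPM in the other DTR libraries and 44.7, 21.5 and 33.3 CPM in Ctrl. Without DTR replicate 3 the log2 fold changes were 0.47 for Dpp4, 0.40 for Cd34, 0.15 for Il6ra, 0.05 for C3 and 0.01 for Il6st, so that the size of these values rests on that library. The part of these cells in the Tnxb and Fn1 values of that library was not tested.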

How the data were processed

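RNA of sorted MO5 tumor stroma was measured in 3 Ctrl and 3 DTR libraries, grouped by the genotype label. The authors deposited raw counts per gene; per the labels, reads were processed with cutadapt 3.4, STAR 2.7.3a and featureCounts 2.0.1 on GRCm38. Reads were assigned to Ensembl genes by strand. Exon lengths for RPKM came from GENCODE M21, a later annotation of the same build. The table also holds 6 per-sample columns and columns of the authors' own comparison (fold changes and p-values), none of which were used. Unnamed genes were named from GENCODE M21 (27927 of 27987). Genes passing the edgeR filter (minimum count 10, minimum total 15) were tested with the edgeR 4.0.16 quasi-likelihood test (R 4.3.3, TMM scaling, Benjamini-Hochberg adjustment over 15133 genes), and all 10 members passed the filter. The step was tested on simulated data. DESeq2 1.42.0 (Wald test) was an alternative, with 2 other scalings, 2 other filters, a replicate block, an offset for genomic span and each library left out. Ratios used a prior count of 1. Named were all members, the lowest and highest gene of each list and any called, and the 3 nearest genes of the 3 members with the widest range, the other marker and pathway genes being named after their values were seen. Members and lists were chosen with earlier results of these data known. Figures were drawn with matplotlib 3.10.9.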

Additional observations from a re-analysis of the deposited data

How the results depend on the processing

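None of the 10 genes had an adjusted p under 0.05 under any of the 13 alternatives. Over all genes the count called was 0 in edgeR, 31 with DESeq2 and 0 to 2 when single libraries were left out, the 2 being 4930509G22Rik and Gm8518 without Ctrl replicate 1. Members at an unadjusted p under 0.05 depended more on the setting, with 6 when every gene with a count was kept (6.76% of all genes), 6 without DTR replicate 2 (7.59%), 9 (all but Tnc) without Ctrl replicate 1 (8.35%), but 0 without Ctrl replicate 3 (6.09%) or DTR replicate 1 (10.2%). The log2 fold change of Thbs1 ranged from -0.15 to 0.69 when single libraries were left out, and the other 9 kept their direction in 13 of those 13 alternatives. Scaling to the summed fibroblast genes, chosen after seeing the data, subtracts 0.40 from every gene’s difference of mean log2 levels (not the edgeR fold change), which by construction takes Sparc from 0.30 to -0.10 and Thbs1 from 0.23 to -0.17. With the replicate block 0 genes and 0 members were called (2 members at an unadjusted p under 0.05, beside 8.4% of all genes). Deviations from the group means correlated by 0.107, 0.129 and -0.0343 between libraries of equal number. Against DTR libraries of other numbers, Ctrl replicate 1 gave -0.204 to 0.0979 and Ctrl replicate 2 gave -0.0691 to -0.0587. Ctrl replicate 3 gave -0.0552 to 0.0876. With 3 libraries a group, these correlations cannot tell whether equal numbers pair the samples. No log2 ratio changed sign. Each of the 10 genes had at least 334 counts in every library, and with 3 libraries a group the exact permutation test cannot go below 0.1.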
